A study of Mus musculus with 12 samples.

Results

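The cadherins, adhesion proteins and transcription factors of the epithelial-mesenchymal switch were followed on 12 one-colour Agilent arrays of mouse pluripotent cells. They comprised 10 genes, Cdh1, Cdh2, Epcam, Vim, Snai1, Snai2, Zeb1, Zeb2, Twist1 and Pecam1, taken by name from 24038 genes named on the array, and every array probe carrying one of these names was used. This gave 13 probes on 23 spots, of the 55681 probes and 59305 spots of the array that are not controls. Cdh1 was printed as 1 probe on 10 spots and Pecam1 as 1 probe on 2 spots, Cdh2 had 2 probes, Zeb2 had 3, and each other gene had 1 probe on 1 spot.

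The arrays held RNA of mouse embryonic stem cells (mESC), 4 samples labelled Tbx3-low and 4 labelled Tbx3-high, and of mouse induced pluripotent stem cells (iPSC), 2 labelled Tbx3 wild type and 2 labelled Tbx3 null. Tbx3 encodes a T-box transcription factor expressed in pluripotent cells, and the series is titled as a study of its place in the pluripotency network. The labels do not say how the high and low cells were separated, which part of the gene the null allele lacks, which strain was used, whether an iPSC line is a single clone or whether feeder cells were present. Nor do they say that replicates were cultured separately; the spread behind each p-value may therefore be technical. The groups therefore differ by their Tbx3 label as far as the labels say.

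Epithelial cells hold together through E-cadherin (Cdh1) and the adhesion molecule Epcam, whereas mesenchymal cells tend to carry N-cadherin (Cdh2) and the intermediate filament vimentin (Vim). The zinc-finger proteins Snai1, Snai2, Zeb1 and Zeb2 repress epithelial genes, Cdh1 among them, by binding E-box elements near their start sites, and the helix-loop-helix protein Twist1 acts beside them during gastrulation and neural crest formation. Mouse pluripotent cells grow as epithelial colonies with E-cadherin contacts, and they also carry Pecam1, a surface adhesion molecule otherwise known from endothelium and platelets.

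The DNA just before the start sites of Epcam, Snai1 and Vim is shown because the zinc-finger repressors are known to bind the letters CACCTG, which read CAGGTG on the other strand, and these members differ in carrying them. RefSeq promoter sequences of mouse build GRCm38.p6 were analysed for 5 of the 10 members, Epcam, Vim, Snai1, Zeb2 and Twist1, with 8 start sites. Those of Cdh1, Cdh2, Snai2, Zeb1 and Pecam1 were not analysed here. Each run below is 250 bases ending at the base before the start site, 5′ to 3′ on the gene's strand, with the E-box letters in capitals. Epcam lies at chr17:87635729-87635978, Snai1 at chr2:167537945-167538194 and Vim at chr2:13574061-13574310, all on the plus strand.
Epcam: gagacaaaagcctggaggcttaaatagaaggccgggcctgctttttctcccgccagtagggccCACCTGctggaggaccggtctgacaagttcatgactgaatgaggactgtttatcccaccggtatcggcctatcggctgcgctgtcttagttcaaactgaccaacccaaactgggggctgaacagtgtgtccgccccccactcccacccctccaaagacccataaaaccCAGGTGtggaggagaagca
Snai1: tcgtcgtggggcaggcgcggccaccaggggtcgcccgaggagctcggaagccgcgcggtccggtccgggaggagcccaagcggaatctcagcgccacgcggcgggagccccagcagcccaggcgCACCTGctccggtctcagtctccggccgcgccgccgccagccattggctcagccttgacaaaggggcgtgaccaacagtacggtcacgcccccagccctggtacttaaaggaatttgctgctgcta
Vim: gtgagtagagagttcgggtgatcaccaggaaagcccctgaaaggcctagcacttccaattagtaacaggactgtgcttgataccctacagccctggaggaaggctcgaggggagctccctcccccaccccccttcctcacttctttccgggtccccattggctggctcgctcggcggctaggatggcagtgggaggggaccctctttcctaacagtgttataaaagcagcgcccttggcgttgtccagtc
The Epcam window held 2 of these E-boxes, which began 187 and 19 bases before the start site. Snai1 held 1, which began 126 bases before it, and none was found in the windows of Vim, Twist1 or the 4 Zeb2 start sites. Of all 32851 windows of this length, 17.2% held at least 1. The T-box letters AGGTGTGA, or on the other strand TCACACCT, share their AGGTG with the E-box and can overlap it. They were in 1.12% of all windows and in none of these 8. A match is a description of the letters and not a measured binding site.

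A level is given as the log2 of the background-subtracted signal divided by the 75th percentile of its array, so 0 is the 75th percentile. Levels of different probes cannot be set against each other, and the mESC and iPSC arrays lay on separate slides scanned separately, so these cell types were not compared. The signal at the 75th percentile ranged from 314 to 458 in mESC and from 699.8 to 1007 in iPSC. Spots well above background made up 55.9% to 62.3% on the Tbx3-low, 57.3% to 64.8% on the Tbx3-high, 68.0% to 68.6% on the wild-type and 62.4% to 63.0% on the null-labelled arrays, and no spot was saturated. All 10 pluripotent cell markers, among them Pou5f1, Sox2 and Nanog, were well above background on all 12 arrays. In mESC 4 of them rose and 1 fell, with summed linear levels of 389 to 404 on the Tbx3-low and 458 to 476 on the Tbx3-high arrays, and in iPSC 1 rose, with sums of 399.9 to 417 in the wild type and 446 to 459.6 under the null label. Their part in the members' changes was not tested. The single Tbx3 probe was 2.51-fold higher in Tbx3-high than in Tbx3-low mESC (log2 change 1.33 ± 0.08 SE, adjusted p = 7.3e-07). In the null-labelled iPSC it was not lower: it stood 0.32 ± 0.11 above the wild type (adjusted p = 0.048), without overlap. Where the probe lies relative to the deletion is unknown here, so it does not check the null label, and these are called the arrays labelled Tbx3-null.

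In mESC, 8 of the 10 member probes tested passed, 7 higher in the Tbx3-high cells and 1 lower. Changes are from limma fitted over all 12 arrays with Benjamini-Hochberg adjustment over all probes tested, and passing means an adjusted p under 0.05. Over all 30691 probes tested, 25.9% passed, 14.5% higher and 11.4% lower. The switch factors Zeb1, Snai2 and Snai1, N-cadherin, vimentin and Pecam1 rose and Epcam fell, while Cdh1 and Twist1 did not pass. Both groups were separated without overlap for those 8 probes, against 29.2% of all probes tested. The median change of the 10 tested probes was 0.45, and that of all probes was 0.04. The 3 Zeb2 probes were not well above background on every array of either group and were not tested.

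**Figure D1:**
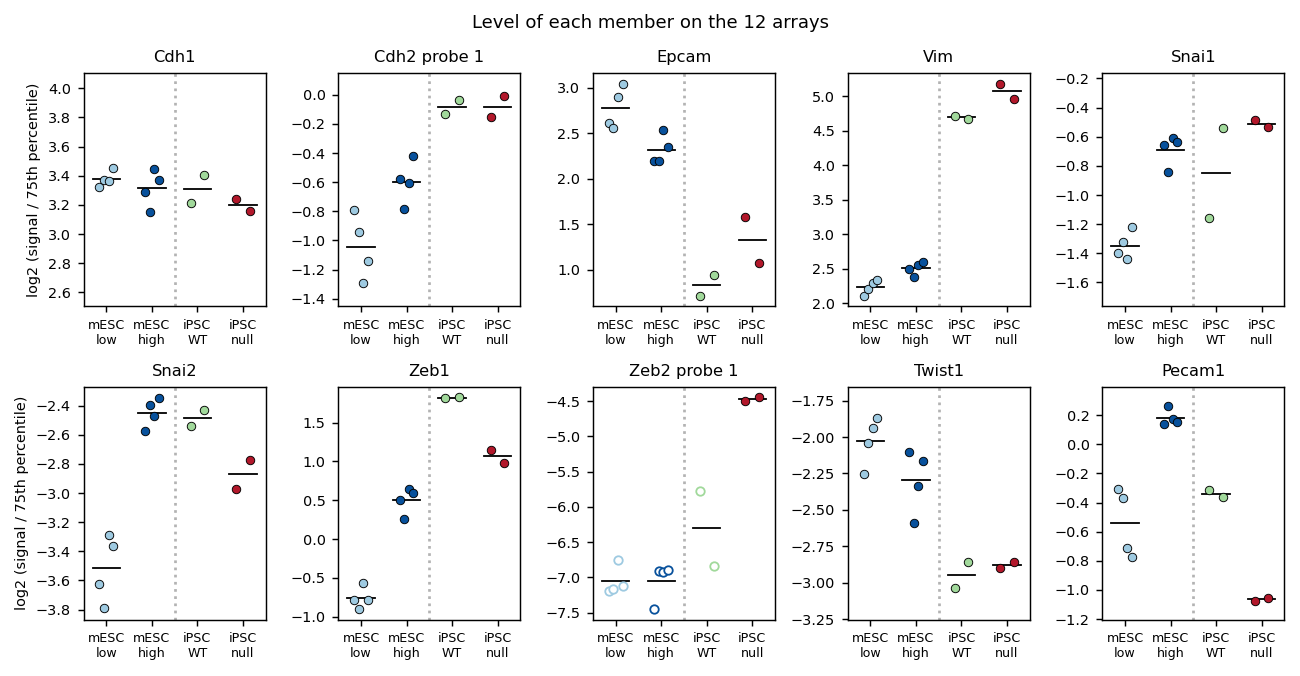
Level of each member on every array, as log2 of the signal over the array's 75th percentile, with 1 point per array, a line at the group mean and a dotted line between the slides; open points are not well above background, and vertical scales differ between genes. Zeb1, Snai2, Snai1 and Pecam1 separate Tbx3-high from Tbx3-low mESC, while Cdh1 overlaps between them.

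Zeb1, a zinc-finger and homeodomain repressor of Cdh1, showed the largest change among the members in mESC. Its probe (mm9 chr18:5774613-5774672) read -0.79, -0.90, -0.56 and -0.78 on Tbx3-low replicates 1 to 4 and 0.50, 0.26, 0.65 and 0.60 on the Tbx3-high replicates. Every high array stood above every low array, by 2.40-fold on average (1.26 ± 0.10 SE, adjusted p = 7.1e-06). This change was greater in size than that of 97.9% of the probes tested. On the first slide row alone it was 1.22 and on the second 1.30, and it passed in both.

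Snai2, also called Slug, is a snail-family repressor known from neural crest. The Tbx3-low arrays gave -3.62, -3.79, -3.29 and -3.36 for its probe (chr16:14709361-14709420), and the Tbx3-high arrays -2.58, -2.39, -2.47 and -2.35. The groups were clearly apart, with Snai2 2.10-fold higher in Tbx3-high cells (1.07 ± 0.11 SE, adjusted p = 5.0e-05). The change was 1.22 on slide row 1 and 0.92 on row 2. Snai2 was dim but well above background on all 12 arrays, and its change was 0.47 after normexp background correction with quantile normalization (adjusted p = 4.0e-05) and 0.52 in the deposited series table's values (adjusted p = 5.0e-05).

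Snai1, the snail-family repressor that acts at gastrulation, rose less. For its probe (chr2:167368073-167368132) the low arrays read -1.40, -1.33, -1.44 and -1.22 and the high arrays -0.66, -0.84, -0.61 and -0.64. No arrays overlapped, and the mean was 1.58-fold higher in Tbx3-high cells (0.66 ± 0.12 SE, adjusted p = 0.0020). With each slide row taken alone the change was 0.61 and 0.71, of the same direction, and missed the threshold (adjusted p = 0.091 and 0.060).

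Cdh2, the N-cadherin of mesenchymal and neural cells, rose on both of its probes, which lie within 1 stretch of chromosome 18 (chr18:16747559-16747618 and chr18:16747386-16747445) and are not independent. Probe 1 read -0.79, -0.94, -1.29 and -1.14 in Tbx3-low and -0.58, -0.78, -0.60 and -0.42 in Tbx3-high cells. Probe 2 read -1.28, -1.40, -1.48 and -1.36 against -1.01, -0.99, -0.85 and -0.83. For probe 1 the lowest high array lay just above the highest low array, and for probe 2 the gap was wider. The changes were 0.45 ± 0.11 SE (1.36-fold, adjusted p = 0.014) and 0.46 ± 0.08 SE (1.37-fold, adjusted p = 0.0018). On slide row 1 alone they were 0.19 and 0.34 and did not pass (adjusted p = 0.35 and 0.12), and on row 2 they were 0.71 and 0.58 and passed.

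Vim, the vimentin of mesenchymal filaments, changed little. Its probe (chr2:13504232-13504291) gave 2.11, 2.20, 2.29 and 2.33 in Tbx3-low and 2.50, 2.38, 2.56 and 2.59 in Tbx3-high mESC. The groups did not overlap, and the rise was 1.21-fold (0.27 ± 0.08 SE, adjusted p = 0.027). It missed the threshold without low replicate 1 or 2 or without high replicate 1, 3 or 4, with changes of 0.23 to 0.28 in those fits (adjusted p = 0.054 to 0.076). It was 0.28 on slide row 1 and 0.26 on row 2, neither of which passed (adjusted p = 0.15 and 0.14).

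Cdh1, the E-cadherin on which colonies of pluripotent cells depend, was measured on 10 spots per array (chr8:109193812-109193871). It read 3.32, 3.37, 3.36 and 3.45 in Tbx3-low and 3.29, 3.15, 3.44 and 3.37 in Tbx3-high cells. These ranges overlapped, and the change was -0.06 ± 0.08 SE (adjusted p = 0.62), with a 95% confidence interval of -0.24 to 0.11. The interval leaves out changes of the size seen for Zeb1 or Snai2, in either direction. Within an array the 7 to 10 Cdh1 spots left after removal of spots with outlier marks had an SD of 0.024 to 0.081 log2 units.

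Epcam, an epithelial adhesion molecule of stem cell colonies, was the member that fell. Its probe (chr17:88048972-88049800, a span that reaches over an intron) read 2.62, 2.57, 2.90 and 3.05 in Tbx3-low and 2.19, 2.19, 2.54 and 2.35 in Tbx3-high cells. The highest Tbx3-high array, at 2.54, came close to the lowest Tbx3-low array, at 2.57. The mean was 1.38-fold lower (-0.46 ± 0.14 SE, adjusted p = 0.036), and without low replicate 3 or 4 or high replicate 1, 2 or 4 the change of -0.48 to -0.38 missed the threshold (adjusted p = 0.065 to 0.095). By slide row it was -0.40 and -0.53, and neither passed (adjusted p = 0.19 and 0.11).

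Twist1, which drives mesenchymal states in mesoderm and crest, overlapped between the groups. Its probe (chr12:34644411-34644470) gave -2.25, -2.04, -1.94 and -1.87 in Tbx3-low and -2.10, -2.59, -2.33 and -2.16 in Tbx3-high cells. The change was -0.27 ± 0.12 SE (adjusted p = 0.12), with a 95% interval of -0.53 to -0.01. Of the switch factors among the members that were well above background, it was the one whose mean was not higher in Tbx3-high cells.

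Pecam1 rose with the switch factors. The probe (chr11:106540864-106540923) read -0.31, -0.37, -0.71 and -0.77 in Tbx3-low cells, where replicates 3 and 4 lay below 1 and 2. In Tbx3-high cells it read 0.14, 0.26, 0.17 and 0.15. The high arrays were close together and all above the low ones, with a mean 1.65-fold higher (0.72 ± 0.10 SE, adjusted p = 0.00046). It was 0.54 on slide row 1 and 0.90 on row 2 and passed in both.

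In bulk RNA a change in the share of cells of one type cannot be told apart from a change in RNA per cell, so markers of other cells are given beside these changes. Of 12 fibroblast (feeder) markers, 7 were tested in mESC, 4 rose and 1 fell. Among the risen were the collagen Col1a1 (1.54 ± 0.11 SE) and the growth factor receptors Pdgfrb (1.83 ± 0.10 SE) and Pdgfra (1.30 ± 0.15 SE). These were picked from the risen after their values were seen, and the 1 that fell is not named. The summed linear level of the 12 fibroblast markers was 3.18 to 3.51 on the low and 4.13 to 28.8 on the high arrays. The high sum reached 28.8 because Thy1 alone read 26.6 on high replicate 2 and at most 1.95 on the other high arrays. Without Thy1, a step chosen after its values were seen, the sums were 1.30 to 1.39 and 2.18 to 2.45. Between 6 and 8 of the 12 fibroblast markers were well above background on each mESC array, while Postn was not on any array. Of 12 endoderm markers, 10 were tested, 4 rose and none fell, and their sum was 15.9 to 17.2 on the low and 24.8 to 32.4 on the high arrays. Col4a1 (1.86 ± 0.11 SE), Gata6 (1.49 ± 0.13 SE) and Lama1 (0.78 ± 0.09 SE) were among the endoderm markers that rose. The part of these markers in the changes of Zeb1, Snai1, Snai2, Cdh2 and Vim was not tested. Of 13 endothelial and platelet markers, 7 were tested, 2 rose and 2 fell, and their sum was 9.0 to 11.3 against 9.66 to 11. Between 7 and 8 of the 13 were well above background on each mESC array, while Cdh5, Emcn and Gp9 were not on any array. Of the markers tested, 71.4% of fibroblast, 40.0% of endoderm and 57.1% of endothelial and platelet markers passed, beside 31.0% of all genes.

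In iPSC, 4 of the 11 member probes tested passed, 2 higher and 2 lower in the arrays labelled Tbx3-null. Zeb1 and Pecam1, higher in Tbx3-high mESC, were lower in null-labelled iPSC, while vimentin and 1 probe of Zeb2 were higher. That Zeb2 probe entered the test only through the null-labelled arrays. Over all 36712 probes tested, 28.3% passed, 15.5% higher and 12.9% lower, so the members' share of 36.4% was near that of all probes. With 2 arrays a group, 7 of the 11 probes did not overlap, beside 66.4% of all probes. Their median change was 0.00, and that of all probes was 0.05.

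Zeb1 read 1.81 and 1.83 on the wild-type arrays and 1.15 and 0.99 on the null-labelled ones. It was 1.69-fold lower in the latter (-0.75 ± 0.15 SE, adjusted p = 0.0033). Pecam1 read -0.31 and -0.36 in the wild type and -1.07 and -1.05 under the null label. Replicates lay close together, and Pecam1 was 1.65-fold lower (-0.72 ± 0.15 SE, adjusted p = 0.0051).

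Vim gave 4.72 and 4.67 on the wild-type arrays and 5.18 and 4.96 on the null-labelled arrays. That is 1.30-fold higher in the null-labelled cells (0.37 ± 0.11 SE, adjusted p = 0.033). The call was lost with quantile normalization, at 0.22 (adjusted p = 0.10). It was also lost without null replicate 1, at 0.27 (adjusted p = 0.21), without wild-type replicate 1, at 0.40 (adjusted p = 0.10), without wild-type replicate 2, at 0.35 (adjusted p = 0.13), and in a fit of the iPSC arrays alone, at 0.37 (adjusted p = 0.12).

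Zeb2, the repressor related to Zeb1, was measurable on 1 of its 3 probes and only under the null label. Probe 1 (chr2:44842774-44842833) read -4.51 and -4.44 on the null-labelled arrays and -5.78 and -6.83 on the wild-type arrays, where it was not well above background. It was at least 2.44-fold higher in the null-labelled cells. For this bound each wild-type array was set to the dimmest signal that the array still measured above background, or to the probe's own signal where that was brighter. This probe entered the test only through the null-labelled arrays. Its fitted change of 1.83 ± 0.31 SE (adjusted p = 0.0016) rests on wild-type values not well above background, and the bound itself was not tested. The fitted change ran from 0.30 with normexp correction to 2.36 without wild-type replicate 1. Probes 2 (chr2:44965914-44965973) and 3 (chr2:44840038-44840097) were not well above background on any of the 12 arrays and were not tested, and probe 1 lay between -7.45 and -6.75 on the 8 mESC arrays, not well above background there either.

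The remaining members did not pass in iPSC. Snai2 read -2.54 and -2.43 in the wild type and -2.97 and -2.78 under the null label, a change of -0.39 ± 0.16 SE (adjusted p = 0.11; 95% interval -0.75 to -0.03). Snai1 read -1.16 and -0.54 against -0.49 and -0.53, so that a single wild-type array set its change of 0.34 ± 0.17 SE (adjusted p = 0.18). Without wild-type replicate 2 the Snai1 change was 0.65 and passed (adjusted p = 0.0097), and without wild-type replicate 1 it was 0.03.

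Epcam gave 0.72 and 0.95 against 1.58 and 1.07, a change of 0.49 ± 0.21 SE (adjusted p = 0.11), which was 0.75 and passed without null replicate 2 (adjusted p = 0.046). Cdh1 read 3.21 and 3.40 in the wild type and 3.24 and 3.16 under the null label. Its change of -0.10 ± 0.11 SE (adjusted p = 0.56) had an interval of -0.35 to 0.15. The Cdh1 change depended on the processing and came near the threshold in some alternatives. It was -0.26 with quantile normalization (adjusted p = 0.056) and -0.26 with normexp correction (adjusted p = 0.054). In the deposited series table's values it was -0.31 (adjusted p = 0.060). The Cdh1 arrays overlapped, as they had in mESC. Cdh2 changed by 0.00 ± 0.17 SE on probe 1 (-0.13 and -0.04 against -0.15 and -0.01) and by -0.12 ± 0.12 SE on probe 2 (-0.44 and -0.32 against -0.63 and -0.37), with adjusted p of 0.99 and 0.52. Twist1 read -3.04 and -2.86 against -2.90 and -2.86 (0.07 ± 0.17 SE, adjusted p = 0.82).

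**Figure D2:**
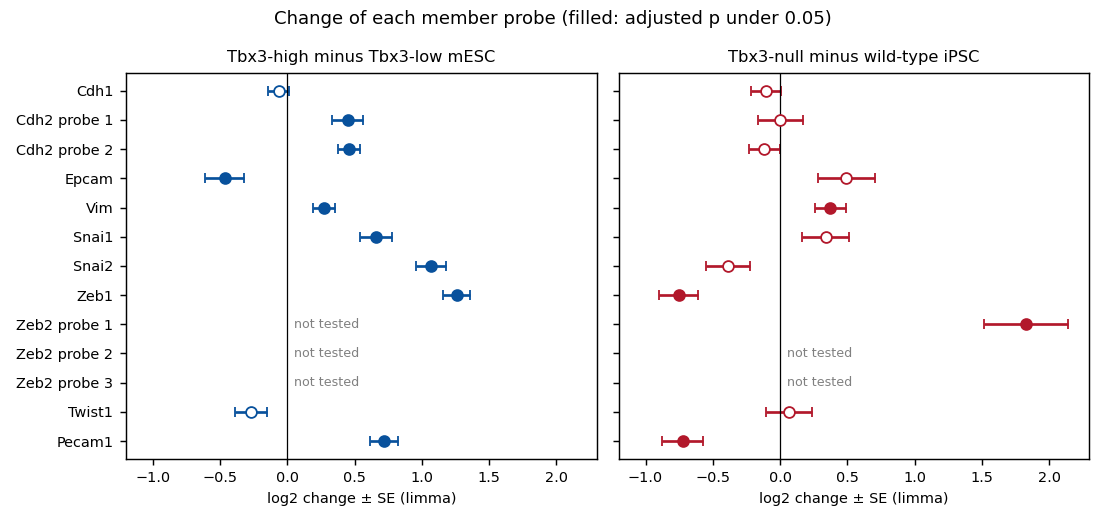
Change of each member probe as log2 difference of group means with the SE of the limma fit, on the left Tbx3-high minus Tbx3-low mESC (4 arrays a group) and on the right Tbx3-null minus wild-type iPSC (2 arrays a group); filled points passed an adjusted p of 0.05. Zeb1 and Pecam1 lie right of 0 in mESC and left of it in iPSC, Vim lies right of it in both, and Cdh1 is open in both.

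Markers of other cells moved in iPSC too. Of 9 fibroblast markers tested, 1 rose and 4 fell in the null-labelled arrays, among them Col1a1 (-2.32 ± 0.15 SE) and Pdgfrb (-2.22 ± 0.15 SE). Without Thy1 the sum of the markers was 2.40 to 2.48 in the wild type and 0.725 to 0.777 under the null label. With Thy1 the sums were 2.87 to 2.96 and 1.25 to 1.33. Of 11 endoderm markers tested, 1 rose and 6 fell, with sums of 9.73 to 11.4 and 4.55 to 4.63. Gata6 fell by 1.90 ± 0.19 SE. Of 12 endoderm markers, 11 were well above background on each wild-type array and 9 on each null-labelled array. Of 12 fibroblast markers these numbers were 8 and 6 to 7. Some markers of both lists thus entered the test only through the wild-type arrays, so their changes rest partly on values near background. The markers named with a change were picked from the fallen after their values were seen. In each list the 1 that rose is not named. Endothelial and platelet markers had sums of 12.5 to 12.8 and 13.4 to 14.3, and of 9 tested 1 rose and 2 fell. Of the markers tested, 55.6% of fibroblast, 63.6% of endoderm and 33.3% of endothelial and platelet markers passed, beside 34.7% of all genes. The part of these markers in the falls of Zeb1 and Pecam1 was not tested.

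To ask whether the members moved alike with the Tbx3 label in both cell types, the change from low to high mESC was compared with that from null-labelled to wild-type iPSC. A positive difference means a larger rise toward the Tbx3-high label in mESC than toward the wild-type label in iPSC. Of 11 member probes, 4 passed, all positive, and over all 37071 probes tested 23.0% passed, 12.8% positive and 10.1% negative. Snai1, Vim and Snai2 rose in mESC, whereas Zeb2 probe 1 was not measurable there and entered this test only through the null-labelled arrays. Snai1 rose by 0.66 in mESC and stood 0.34 lower in the wild type than under the null label, a difference of 1.0 ± 0.21 SE (adjusted p = 0.0076) that missed the threshold on either slide row alone (0.95 and 1.05, adjusted p = 0.075 and 0.062). The vimentin difference was 0.65 ± 0.14 SE (adjusted p = 0.0083), since Vim was higher in Tbx3-high mESC but lower in wild-type iPSC. The mean of Snai2 was higher in Tbx3-high mESC and in wild-type iPSC, though Snai2 did not pass in iPSC. Its changes differed in size by 0.68 ± 0.20 SE (adjusted p = 0.034). Leaving out mESC low replicate 1, high replicate 2, 3 or 4, or any one of the 4 iPSC arrays cost the Snai2 difference its call, with values of 0.58 to 0.78 and adjusted p of 0.052 to 0.13, and it was 0.29 with normexp correction (adjusted p = 0.055). The fitted difference of Zeb2 probe 1 was 1.84 ± 0.38 SE (adjusted p = 0.0066). It is no measured size, since the probe was not well above background in 3 of the 4 groups, and it was 0.17 and missed the threshold with normexp correction (adjusted p = 0.32).

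Zeb1 was higher in Tbx3-high mESC, by 1.26, and in wild-type iPSC, by 0.75. The difference of 0.51 ± 0.18 SE did not pass (adjusted p = 0.068), but it passed in 6 of 22 alternatives, among them the fit with the replicate number as a block (adjusted p = 0.040) and those without low replicate 3 (0.57, adjusted p = 0.040) or high replicate 2 (0.59, adjusted p = 0.026). For Pecam1 the changes were 0.72 in each cell type, and the difference of -0.00 ± 0.18 SE had a 95% interval of -0.42 to 0.41 (adjusted p = 0.99). Epcam changed by -0.46 and, toward the wild-type label, by -0.49, with a difference of 0.03 ± 0.26 SE and an interval of -0.55 to 0.60 (adjusted p = 0.95). Cdh1 differed by -0.17 ± 0.14 SE (adjusted p = 0.44), which became -0.35 with quantile normalization and passed (adjusted p = 0.046).

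The adhesion and switch members were also read against Cdh1 on the same array, which removes any scaling between arrays. In mESC the level relative to Cdh1 shifted by 1.32 for Zeb1, 1.13 for Snai2, 0.78 for Pecam1, 0.72 for Snai1, 0.51 and 0.52 for the Cdh2 probes and 0.34 for Vim, and by -0.40 for Epcam, with no overlap between groups in each case. Twist1 overlapped, with a shift of -0.21. In iPSC the shift was -0.65 for Zeb1, -0.62 for Pecam1 and -0.28 for Snai2, and 0.60 for Epcam, 0.48 for Vim, 0.44 for Snai1 and 0.17 for Twist1, again with no overlap in each case. Both Cdh2 probes overlapped there, with shifts of 0.11 and -0.012. On their own levels, Epcam, Snai1, Snai2 and Twist1 did not pass in iPSC. Over all probes tested, read without Cdh1, groups did not overlap for 29.2% in mESC and 66.4% in iPSC. No such share is given for ratios to Cdh1, so their lack of overlap is a description and not a test. Such ratios show that these probes changed unequally and not which of them moved.

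In the wider epithelial programme more genes fell than rose in Tbx3-high mESC, as Epcam did. It was listed as 31 genes of epithelial splicing, transcription, tight junctions, keratins and desmosomes; all were tested, 17 fell, 3 rose and 11 did not pass, with a median change of -0.53. Over all 15884 genes, each read by its brightest probe, 31.0% passed, 13.9% lower and 17.2% higher, and the median was 0.04. Esrp1, which directs epithelial splicing, fell by 1.72 ± 0.11 SE (adjusted p = 1.5e-06). The keratin Krt18 (-1.72 ± 0.11 SE, adjusted p = 1.5e-06) and the transcription factor Grhl1 (-1.42 ± 0.08 SE, adjusted p = 9.2e-07) fell as well. Grhl2, an activator of Cdh1, fell by 0.48 ± 0.08 SE, and Ovol2, a repressor of Zeb1, changed by -0.21 ± 0.16 SE without passing (adjusted p = 0.37). The genes that rose were Spint1, a protease inhibitor of epithelia (1.12 ± 0.09 SE), the desmosomal cadherin Dsg2 (0.42 ± 0.11 SE) and the transcription factor Elf3 (0.28 ± 0.09 SE, adjusted p = 0.042). The summed linear level of the list was 123 to 138 on the Tbx3-low and 93.1 to 108 on the Tbx3-high arrays.

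In iPSC the same programme split. Of 29 genes tested, 7 rose and 6 fell under the null label, with a median of 0.09, beside 34.7% of 17756 genes that passed, 19.4% higher and 15.3% lower, and a median of 0.07. Esrp1 rose by 2.42 ± 0.16 SE (adjusted p = 2.8e-06), the claudin Cldn6 by 1.96 ± 0.23 SE and the polarity gene Crb3 by 1.66 ± 0.15 SE. The keratin Krt19 (-2.58 ± 0.26 SE), the tight-junction protein Ocln (-1.61 ± 0.19 SE) and Cldn3 (-0.85 ± 0.13 SE) fell. Grhl2 (0.11 ± 0.12 SE) and Ovol2 (-0.30 ± 0.23 SE) did not pass. Of the 9 epithelial genes that passed in both comparisons, Esrp1, Cldn4, Cldn6, Crb3, Krt18, Rab25 and Ap1m2 were lower in Tbx3-high mESC and higher in null-labelled iPSC, and Esrp2 and Cldn3 were lower in both. Over all genes that passed in both comparisons, 1802 of 2511, or 71.8%, had opposite signs in the comparisons, so 7 of 9 was near the share of genes at large.

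**Figure D3:**
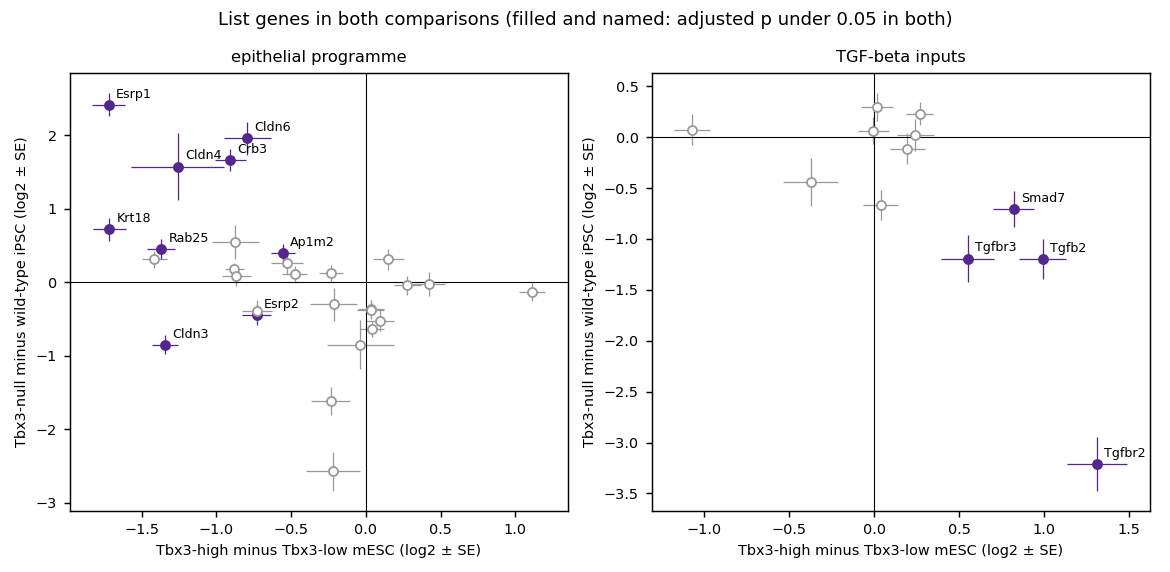
Log2 change with SE of the epithelial programme genes (left) and of the TGF-beta ligands, receptors and mediators (right) in Tbx3-high minus Tbx3-low mESC, on the x axis, and Tbx3-null minus wild-type iPSC, on the y axis; filled, named points passed in both. Esrp1 lies at -1.72 and 2.42 and Tgfbr2 at 1.31 and -3.21, and the 4 named TGF-beta genes lie lower right.

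Among the other cadherins, 9 of 21 were bright enough to be tested in mESC, 3 rose and 1 fell, a share of 44.4% beside the 31.0% of all genes. Cdh22 rose by 1.65 ± 0.10 SE and Cdh4 by 0.85 ± 0.12 SE. Cdh20 was also higher, but it entered the test only through the Tbx3-high arrays; 1 of 4 Tbx3-low arrays had it well above background, so its fitted change of 1.52 ± 0.15 SE rests partly on values near background. Cdh3, the P-cadherin of epithelia, fell by 1.45 ± 0.09 SE (adjusted p = 1.6e-06), and the mesenchymal Cdh11 changed by 0.08 ± 0.16 SE without passing. In iPSC 12 were tested, 2 rose and 3 fell, a share of 41.7% beside 34.7%. Cdh6 rose by 1.48 ± 0.46 SE and Cdh3 by 0.72 ± 0.14 SE, while Cdh20 (-1.46 ± 0.22 SE), Cdh22 (-1.32 ± 0.15 SE) and Cdh26 (-0.48 ± 0.10 SE) fell. The Cdh11 change of -0.25 ± 0.24 SE did not pass. Cdh3, Cdh20 and Cdh22 passed in both comparisons with opposite signs, as did 71.8% of all genes that passed in both, and E-cadherin passed in neither.

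Partners of the cadherins at adherens junctions, among them catenins and nectins, moved in both directions. In mESC 14 of 16 were tested, 5 rose and 2 fell, with a median of 0.14. That is 50.0%, beside 31.0% of all genes. Nectin1 rose by 1.17 ± 0.07 SE, the delta-catenin Ctnnd2 by 0.49 ± 0.13 SE, plakoglobin (Jup) by 0.36 ± 0.12 SE and alpha-catenin (Ctnna1) by 0.35 ± 0.08 SE. The actin-binding Lima1 (-1.18 ± 0.07 SE) and Nectin3 (-0.70 ± 0.10 SE) fell. Beta-catenin (Ctnnb1, 0.21 ± 0.09 SE, adjusted p = 0.13) and p120 catenin (Ctnnd1, 0.23 ± 0.10 SE, adjusted p = 0.12) did not pass. In iPSC 15 were tested, 2 rose and 2 fell, or 26.7% beside 34.7% of all genes. Lima1 rose by 0.63 ± 0.09 SE and Nectin2 by 0.62 ± 0.17 SE, Nectin1 fell by 1.09 ± 0.10 SE, and Ctnna2 was at least 2.61-fold lower. Ctnna2 was not well above background on the null-labelled arrays and entered the test only through the wild-type arrays. Ctnnb1 (-0.16 ± 0.13 SE), Ctnna1 (0.24 ± 0.12 SE) and Ctnnd1 (-0.26 ± 0.14 SE) did not pass there.

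Other transcription factors of the switch were likewise mixed. In mESC 10 of 14 were tested, 3 rose and 2 fell, or 50.0% beside 31.0% of all genes. Gsc, a homeobox factor of the organizer, rose by 0.53 ± 0.10 SE, Sox4 by 0.50 ± 0.09 SE and the E-protein Tcf4 by 0.39 ± 0.07 SE. Snai3, the third snail-family member, fell by 0.59 ± 0.13 SE (adjusted p = 0.0061) while Snai1 and Snai2 rose. The E-protein Tcf3 changed by 0.02 ± 0.10 SE, and Twist2 was not well above background on any array. In iPSC 9 were tested, 2 rose and 2 fell, or 44.4% beside 34.7%. Hmga2, a chromatin protein of mesenchymal and early embryonic cells, fell by 3.16 ± 0.16 SE (adjusted p = 4.1e-07), and Tcf4 also fell (-0.33 ± 0.11 SE, adjusted p = 0.044). Snai3 rose by 0.72 ± 0.19 SE, and Tcf3 changed by 0.27 ± 0.14 SE without passing.

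Mesenchymal effector genes moved in both directions. In mESC 19 of 21 were tested, 5 rose and 5 fell, with a median of 0.07. That is 52.6%, beside 31.0% of all genes, and the summed linear level was 215 to 225 on the Tbx3-low and 271 to 309.8 on the Tbx3-high arrays. Fibronectin (Fn1) rose by 0.86 ± 0.09 SE (adjusted p = 4.4e-05), its receptor subunit Itga5 by 0.67 ± 0.09 SE and the proteoglycan Bgn by 0.50 ± 0.15 SE. The matrix protein Thbs1 (-1.52 ± 0.26 SE), the smooth-muscle protein Tagln (-1.36 ± 0.11 SE) and the galectin Lgals1 (-1.36 ± 0.08 SE) fell. In iPSC 18 were tested, 5 rose and 4 fell, or 50.0% beside 34.7%, with a median of -0.16. The sums were 229.8 to 235 in the wild type and 255 to 270.2 under the null label. In both cell types the brightest probes weigh most in these sums, which do not show how most of the genes moved. Lgals1 rose by 1.68 ± 0.12 SE, Acta2 by 1.16 ± 0.38 SE and the membrane protease Mmp14 by 0.67 ± 0.15 SE, while Mmp2 (-1.44 ± 0.16 SE) and Fn1 (-0.51 ± 0.13 SE) fell.

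TGF-beta signalling is a known inducer of the snail and Zeb factors. Of its 12 listed ligands, receptors and mediators, 5 rose and 1 fell in Tbx3-high mESC and none rose and 5 fell in null-labelled iPSC. These are 50.0% in mESC, where 31.0% of all genes passed and 17.2% rose, and 41.7% in iPSC, where 34.7% passed and 15.3% fell. The type II receptor Tgfbr2 rose by 1.31 ± 0.18 SE in mESC and fell by 3.21 ± 0.26 SE in iPSC. The ligand Tgfb2 rose by 0.99 ± 0.14 SE and fell by 1.20 ± 0.20 SE, and the inhibitory Smad7 rose by 0.82 ± 0.12 SE and fell by 0.71 ± 0.18 SE. The coreceptor Tgfbr3 fell by 1.19 ± 0.23 SE in iPSC after a rise of 0.55 ± 0.16 SE in mESC. Skil, a repressor of Smad proteins, fell by 1.07 ± 0.10 SE in mESC. All 4 of these genes that passed in both comparisons were higher in Tbx3-high mESC and lower in null-labelled iPSC, beside the 71.8% with opposite signs over all genes.

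Of the 15 cofactors through which the snail and Zeb proteins are known to repress, all tested, 2 rose and 3 fell in mESC. Rcor1 rose by 0.27 ± 0.07 SE and Ctbp2, a corepressor bound by Zeb1, by 0.19 ± 0.06 SE. The LIM proteins Ajuba (-0.46 ± 0.09 SE) and Limd1 (-0.44 ± 0.10 SE) and the polycomb subunit Suz12 (-0.35 ± 0.07 SE) fell. In iPSC 4 rose and 2 fell: Ajuba (0.93 ± 0.13 SE), Ctbp1 (0.45 ± 0.10 SE), Limd1 (0.44 ± 0.14 SE) and Ctbp2 rose, and Rcor1 (-0.53 ± 0.10 SE) and the demethylase Kdm1a (-0.40 ± 0.11 SE) fell. Their shares of 33.3% in mESC and 40.0% in iPSC were near the 31.0% and 34.7% of all genes.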

How the data were processed

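RNA of 12 mouse samples was measured on one-colour arrays. Per the labels' protocols, Cy3 was attached to total RNA extracted with RNeasy kits. The processed spot intensity came from Agilent Feature Extraction 10.7.3.1, per the file headers, after subtraction of background and of spatial trends and without scaling across arrays, and probe positions refer to mm9. Raw mean and local background intensity were also deposited. A deposited table of log2 values, of unstated scaling and background treatment, served as an alternative; its columns had medians of 6.58 to 6.61 and tracked the log2 raw spot mean of their array (lowest r 0.999).

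The values used were log2 processed intensity minus each array's 75th percentile over spots that are not controls. Spots with outlier marks were left out and spots of a probe averaged. A probe was tested when some group of the comparison had it well above background on all arrays. All arrays were fitted with 4 group means in limma 3.58.1 (R 4.3.3), moderated by eBayes, with Benjamini-Hochberg adjustment at 0.05 over all tested probes. The fit was also run on simulated data with independent noise on each array. That run does not cover arrays of a slide row that deviate together. Tables and figures were made in Python 3.11.15 with pandas 2.3.3 and matplotlib 3.10.9.

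The members and gene lists were chosen with earlier results of these data known. Every member probe is reported. Other lists are read by the brightest probe of each gene, and per list and comparison up to 3 risen and 3 fallen genes with the largest changes are named, with Cdh3, Cdh11, Snai3, Twist2, Ctnnb1, Ctnna1, Ctnnd1, Tcf3, Grhl2, Esrp1, Ovol2 and Fn1 in any case; marker genes were named after their values were seen. Some list genes that this rule would name are not reported here, though the list counts include them. Gene names came from the file or a RefSeq table (27656 probes matched on accession, 3401 on symbol, 307 on synonym, while 1788 have the file's own name). Exon and untranslated region positions of the probes were not analysed here.

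In mESC, samples with the same replicate number deviated together (r of 0.14 to 0.29 in 4 pairs), as did samples of a slide row (0.050 to 0.41 for other numbers), against -0.38 to -0.091 across rows. The same-number range lay within that of other numbers on the same slide row. These values therefore do not single out a pairing by replicate number. The main fit paired no samples, and replicate number entered only as a block among the alternatives. In iPSC the r of same-numbered samples was 0.0071. Low arrays filled slide columns 1 and 2 and high arrays columns 3 and 4, so column and group cannot be told apart; the iPSC groups were split the same way. Alternatives were quantile normalization, normexp with an offset of 50, the series table, no filter on dim probes, 1 probe per gene, separate fits per cell type, array weights, replicate and slide row blocks, single slide rows and leaving out each array.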

Additional observations from a re-analysis of the deposited data

Results flagged for a closer look

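Vim, Snai1, Snai2 and Zeb2 probe 1 are listed because their change with the Tbx3 label differed between mESC and iPSC in the test of the difference itself. The difference was 0.65 for Vim, 1.0 for Snai1 and 0.68 for Snai2 on the log2 scale. All of these genes were higher in Tbx3-high mESC. In wild-type iPSC the means of Vim and Snai1 were lower than under the null label, and that of Snai2 was higher. The Snai1 difference missed the threshold on either slide row alone, and a single wild-type array set its iPSC change. The Snai2 difference lost its call in several alternatives, among them normexp correction and the deposited series table's values. The fitted 1.84 of Zeb2 probe 1 is no measured size: the probe was not well above background in mESC or wild-type iPSC and entered the test only through the null-labelled arrays. Cell type lies with slide here, and the part of the slide in these differences cannot be told apart from that of the cells.

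Single arrays stood apart from the other 3 of their group for Zeb2 alone. On probe 1 the highest Tbx3-low array was set off by a gap of 0.839 of the group's range, and the lowest Tbx3-high array by 0.965. On probe 2 the highest Tbx3-high array was set off by 0.886. None of these arrays had the probe well above background, and chance marks about 1 in 20 of the 26 groups of 4 examined.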

How the results depend on the processing

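In the alternatives run, Zeb1, Snai2 and Pecam1 kept their direction and passed in every one in mESC, as did Zeb1 and Pecam1 in iPSC. Zeb1 ranged from 1.08 to 1.34 in mESC and from -0.84 to -0.67 in iPSC, Pecam1 from 0.54 to 0.90 and from -0.75 to -0.59, and Snai2 from 0.47 to 1.22 in mESC. The count of member probes that passed in mESC, 8, was 3 on slide row 1 alone and 5 on row 2 alone, with fewer arrays, and 6 to 7 with 1 array left out. The iPSC count of 4 ran from 3 to 5 with 1 array left out. The count for the difference, 4, was 2 on slide row 1 alone and 3 to 5 with 1 array left out. With the replicate block the counts were 8, 4 and 5, and of the member calls the block changed that of Zeb1 in the difference alone. Over all probes the counts were 4360 and 4476 on the rows alone against 7946 in mESC, and 6754 with 1 probe per gene against 10398 in iPSC, where fewer probes were tested.

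Values near 0 changed sign: Cdh1 in mESC was 0.00012 on slide row 2. Cdh2 probe 1 in iPSC was -0.027 with normexp, -0.039 in the series table and -0.067 to 0.073 with 1 array left out; probe 2 ran from -0.24 to 0.0096 and Twist1 from -0.021 to 0.16. In the difference, Epcam was -0.096 with quantile normalization, -0.16 with normexp, -0.13 in the series table, -0.038 on row 2 and -0.22 to 0.28 with 1 array left out. Pecam1 was 0.017, 0.035, 0.069 and 0.18 in those settings and -0.081 to 0.075 with 1 array left out. Zeb2 probe 1 in the difference fell to 0.17 with normexp and missed the threshold. The cause was not tested. With 2 arrays a group and 1 left out, the lone iPSC array is assumed to vary like the other groups.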
